A study of Mus musculus with 7 samples.

Results

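The genes described here encode the proteins of the extracellular matrix other than the collagens: adhesive and matricellular glycoproteins, the elastic fibre and its microfibrils, proteoglycans, hyaluronan synthases, and the lysyl oxidases that crosslink the fibres. They were taken as a list of 42 gene symbols, of which 41 stood in the table of 24964 genes, and Igfbp7l1 was not matched. Of the 41, 37 averaged 1 FPKM or more across the 7 libraries and entered the test, while Thbs4, Acan, Has1 and Has2 fell below that filter. FPKM is the number of sequenced fragments per kilobase of gene length and scaled to the size of the library. RNA was sequenced from the whole uterus of mice aged 12 weeks and recorded in diestrus, the cycle phase between ovulations. The 3 control libraries (numbers 1, 2 and 4) had the genotype Pgrcre/+, and the 4 others (numbers 1 to 4) had Pgrcre/+Foxl2LsL/+ and are called Foxl2-LSL here. All 7 thus carried 1 Pgrcre allele, which puts Cre recombinase under the progesterone receptor gene, active in uterine epithelium, stroma and muscle. The series title names overexpression of FOXL2, a forkhead transcription factor. The labels do not say that each library is a separate animal, so the p-values measure the spread between these libraries only.

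The matrix of the uterus is laid down mainly by stromal fibroblasts and smooth muscle cells. Fibronectin and collagen form the fibrous scaffold, elastin is laid on microfibrils of fibrillin, small leucine-rich proteoglycans coat collagen fibrils and set their width, and versican with hyaluronan holds water. Matricellular proteins such as tenascin, periostin and the thrombospondins carry little load and modulate how cells bind to the scaffold. In the uterus this matrix is rebuilt with each cycle, at implantation and when the cervix softens.

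Some facts of the whole series bear on every value below. Library size, worked back from the steps of the low values, was 47800000 to 67300000 fragments. Foxl2 itself was at 11.1, 19.3 and 12.9 FPKM in controls 1, 2 and 4 and at 12.7, 14.3, 14.8 and 17.2 FPKM in Foxl2-LSL 1 to 4, so the groups overlapped (log2 change 0.06 with SE 0.18, Benjamini-Hochberg adjusted p 0.818 by limma). Of the other genes checked against the labels, Gt(ROSA)26Sor and Foxl2os separated the groups and Pgr did not. Gt(ROSA)26Sor, a locus often used to insert transgenes, was at 16.0, 16.2 and 13.3 FPKM in controls and 32.7, 29.0, 23.2 and 29.6 FPKM in Foxl2-LSL libraries (log2 change 0.87 with SE 0.12, Benjamini-Hochberg adjusted p 0.00181 by limma). Foxl2os, the antisense neighbour of Foxl2, was at 23.6, 37.5 and 22.6 FPKM in controls and 4.72, 6.75, 5.50 and 5.87 FPKM in Foxl2-LSL libraries (log2 change -2.08 with SE 0.18, Benjamini-Hochberg adjusted p 0.000345 by limma). Pgr, the progesterone receptor gene, was at 36.5, 39.0 and 24.8 FPKM in controls and 25.5, 26.5, 25.8 and 23.8 FPKM in Foxl2-LSL libraries. Its groups overlapped (log2 change -0.36 with SE 0.15, Benjamini-Hochberg adjusted p 0.0845 by limma). Whether a transgene transcript would be counted at Foxl2, and whether counting used strand, is not given in the sources used here. Directions are given for the libraries as labelled. Defining markers of smooth muscle, stroma, epithelium and glands (Myh11, Pdgfra, Epcam, Foxa2) were all present. The 6 adipose markers (Adipoq, Plin1, Cidec, Lep, Retn and Fabp4) summed to 0.377, 4.88 and 52.9 FPKM in controls 1, 2 and 4 and to 1.62, 75.4, 141 and 10.1 FPKM in Foxl2-LSL 1 to 4. The oviduct gene Ovgp1 was at 291 FPKM in control 2 against 1.65 to 19.7 FPKM in the 6 other libraries, and the ovary markers Zp2, Zp3, Amh, Nr5a1 and Cyp17a1 stayed below 1 FPKM in every library. Controls 1 and 4 stood at opposite ends of their group for most of these genes. Control 1 held the lowest of the 3 control values for 29 of the 37 tested members and the highest for 3, whereas control 4 held the highest for 23. The median coefficient of variation of the 37 members was 30.3% in controls and 12.9% in Foxl2-LSL libraries, against 11.5% and 9.59% over all tested genes. The 8 stromal markers (Pdgfra, Col1a1, Col1a2, Col3a1, Thy1, Vim, Hand2 and Hoxa11) summed to 967, 1533 and 2226 FPKM in controls 1, 2 and 4 and to 746 to 1077 FPKM in Foxl2-LSL libraries, so the sum was also lowest in control 1 and highest in control 4. The sum of the 8 epithelial markers (Krt8, Krt18, Krt19, Epcam, Cdh1, Wnt7a, Cldn3 and Ehf) ran the other way within controls. It went from 1314 FPKM in control 1 to 758 FPKM in control 4. Cldn3 and Ehf were the exceptions, at 126 and 16.4 FPKM in control 1 and 194 and 29.9 FPKM in control 4. Less RNA per cell and fewer cells of a type cannot be told apart in whole tissue, and the part of these differences in the values below was not tested.

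Matrix genes moved in both directions between the genotypes. In the Foxl2-LSL libraries 9 of the 37 tested members were higher and 11 lower (limma, Benjamini-Hochberg adjusted p under 0.05 over 13334 genes), and 17 did not pass. The background was large: 40.6% of all tested genes passed, with 16.7% of tested genes higher and 23.9% lower. That excess of lower genes depended on scaling: 2224 were higher and 3185 lower as deposited, 2678 and 2637 after median centring, and 2663 and 2753 after quantile normalization. Of the members 54.1% passed. Their median log2 fold change was -0.10 against -0.05 over all tested genes, and their median absolute log2 fold change was 0.71 against 0.27. A called change that was also 2-fold or more was found in 12 of the 37, where the share over all tested genes was 7.78%. The groups did not overlap in 21 of the 37, where the share over all tested genes was 47.6%. These counts moved with single controls: without control 1, the members were 8 higher and 17 lower, and without control 2 they were 8 higher and 7 lower. All fold changes below are on the log2(FPKM + 1) scale, on which changes of weakly expressed genes come out too small.

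**Figure D1:**
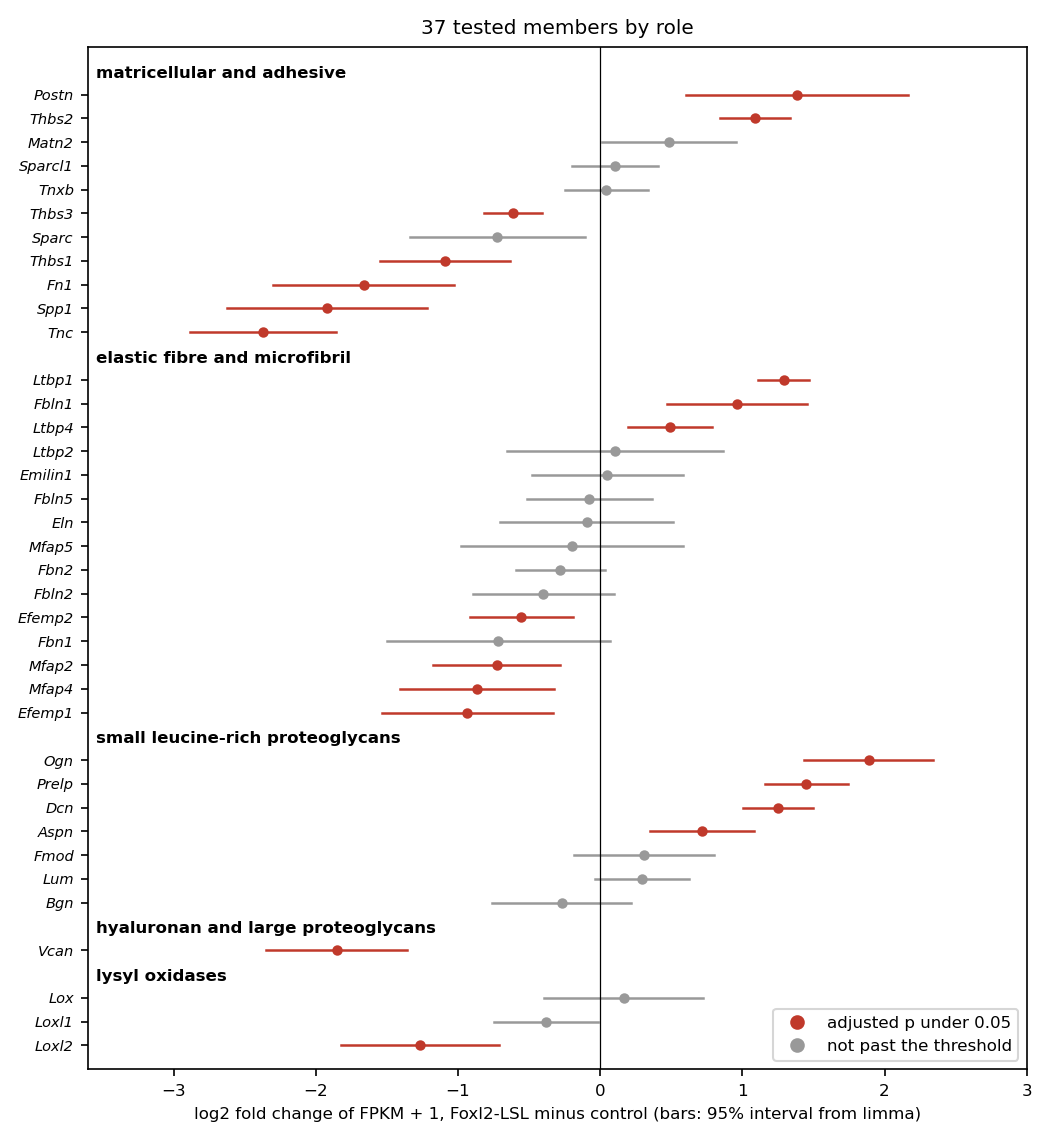
Log2 fold change (Foxl2-LSL minus control, log2(FPKM + 1) scale, x axis) of the 37 tested members, in blocks by role, with the 95% interval from limma. Red members passed an adjusted p of 0.05: the 4 called small leucine-rich proteoglycans all lie to the right of 0, and Tnc, at -2.37, lies farthest to the left.

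The most abundant proteoglycan of these uteri, decorin, and 3 of its relatives rose in the Foxl2-LSL libraries. Small leucine-rich proteoglycans are secreted proteins with a horseshoe-shaped core of leucine-rich repeats, most of which bind collagen fibrils. Over all tested genes 40.6% were called, with 16.7% higher and 23.9% lower. Of 7 members tested, 57.1% were called: 4 rose (Dcn, Ogn, Prelp and Aspn), 0 fell and 3 did not pass (Lum, Fmod and Bgn). The median log2 fold change of the 7 members was 0.71. Their summed level was 612, 767 and 676 FPKM in controls 1, 2 and 4 and 1394, 1447, 1280 and 1483 FPKM in Foxl2-LSL 1 to 4, so no Foxl2-LSL library came near the control range. The ratio of the group means was 2.05.

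Dcn encodes decorin, which carries a single glycosaminoglycan chain and limits the growth of collagen fibrils. It was the most abundant member in 6 of the 7 libraries (Sparc was higher in control 4), at 400.0, 467 and 367 FPKM in controls 1, 2 and 4 and at 936, 1034, 922 and 1019 FPKM in Foxl2-LSL 1 to 4. The lowest Foxl2-LSL library lay far above the highest control, and counting error was small, with at least 50726 fragments on the gene in each library. Controls averaged 411 ± 50.6 FPKM (n = 3, SD) and Foxl2-LSL libraries 978 ± 57.2 FPKM (n = 4, SD), a ratio of 2.38 (log2 change 1.25 with SE 0.11, Benjamini-Hochberg adjusted p 0.000307 by limma). Ranked by mean FPKM among all listed genes, Dcn stood at place 74 in controls and at place 23 in Foxl2-LSL libraries.

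Ogn, which encodes osteoglycin (mimecan), showed the largest rise of the tested members on the log2(FPKM + 1) scale. It was at 26.2, 45.2 and 40.1 FPKM in controls 1, 2 and 4 and at 140.4, 137, 112 and 162 FPKM in Foxl2-LSL 1 to 4. The lowest Foxl2-LSL library was thus well above the highest control, with a ratio of means of 3.71 (log2 change 1.89 with SE 0.20, Benjamini-Hochberg adjusted p 0.000588 by limma). Prelp, which encodes a basic proteoglycan found where basement membranes meet connective tissue, was at 9.25, 11.6 and 7.88 FPKM in controls and 25.998, 30.0, 25.4 and 29.2 FPKM in Foxl2-LSL libraries (log2 change 1.45 with SE 0.13, Benjamini-Hochberg adjusted p 0.000320 by limma). Its groups were well separated too. Aspn, the gene of asporin, a decorin relative with an aspartate-rich stretch in place of the glycosaminoglycan site, was at 7.61, 12.3 and 11.7 FPKM in controls and 16.9, 20.1, 16.4 and 17.1 FPKM in Foxl2-LSL libraries (log2 change 0.71 with SE 0.16, Benjamini-Hochberg adjusted p 0.00961 by limma). This was the smallest of the 4 rises, and the lowest Foxl2-LSL library still exceeded the highest control.

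The 3 other members of the family did not pass. Lum, the gene of lumican, which organises collagen fibrils in cornea and skin, was at 127, 164 and 169 FPKM and 219.8, 177, 159 and 196 FPKM in the 2 groups. Foxl2-LSL 3 lay within the control range and the call was not made (log2 change 0.29 with SE 0.14, Benjamini-Hochberg adjusted p 0.132 by limma; 95% interval -0.03 to 0.62). Bgn encodes biglycan, the closest relative of decorin. It was at 39.9, 64.4 and 77.9 FPKM in controls and 51.4, 45.7, 42.9 and 54.3 FPKM in Foxl2-LSL libraries, with full overlap (log2 fold change -0.27, 95% interval -0.76 to 0.22). Without control 1, its lowest library, Bgn passed as lower (log2 change -0.54, with a Benjamini-Hochberg adjusted p of 0.0163 by limma). It passed in no other fit with 1 library left out, where the change was as small as -0.07. Fmod (fibromodulin) was low, at 1.97 to 4.72 FPKM over the 7 libraries, and overlapped (log2 change 0.31 with SE 0.21, Benjamini-Hochberg adjusted p 0.276 by limma). It passed with a log2 fold change of 0.49 when Foxl2-LSL 3, its lowest library, was left out (limma, Benjamini-Hochberg adjusted p 0.0418).

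The make-up of the family differed between the groups as well. Dcn held 65.4%, 60.9% and 54.3% of the summed FPKM of the 7 genes in controls 1, 2 and 4 and 67.1% to 72.0% in Foxl2-LSL libraries. The share of Bgn was 6.52% to 11.5% in controls and 3.16% to 3.68% in Foxl2-LSL libraries. The share of Ogn was 4.28% to 5.93% in controls and 8.78% to 10.9% in Foxl2-LSL libraries. These shares do not depend on how the libraries are scaled, and none of the 3 overlapped between the groups.

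Most genes of this family sit in 3 clusters in the mouse genome, which was not used to choose the list. Coordinates are those of GENCODE M21 on GRCm38, the assembly also named mm10 in the submitters' processing notes. The cluster on chromosome 13 spans 120 kb and holds Ecm2 (49504810 to 49532789), Aspn (49544443 to 49567565), Omd (49582462 to 49592822) and Ogn (49608046 to 49624501) on the plus strand. Ecm2 and Omd, 2 further leucine-rich matrix genes, were not on the list. All 4 were higher in each Foxl2-LSL library than in any control, where the groups did not overlap in 47.6% of all tested genes. Aspn and Ogn are the called members already described. Ecm2 rose from a control mean of 3.96 ± 0.574 (n = 3) to 9.11 ± 1.45 FPKM (n = 4, ± SD) (log2 change 1.02 with SE 0.13, Benjamini-Hochberg adjusted p 0.00126 by limma). Omd, the gene of osteomodulin, was below the filter, at 0.307 to 0.635 FPKM in controls and 1.02 to 1.55 FPKM in Foxl2-LSL libraries, with 41 to 166 fragments per library. Without the filter its log2 fold change was 0.59 (limma, Benjamini-Hochberg adjusted p 0.00865). The fifth protein-coding gene of the interval, Cenpp, a centromere protein gene that spans the cluster on the minus strand, went the other way: it fell from a control mean of 5.28 ± 1.95 (n = 3) to 2.17 ± 0.350 FPKM (n = 4, ± SD) (log2 change -0.94, SE 0.21, with a Benjamini-Hochberg adjusted p of 0.00978 by limma).

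The cluster on chromosome 10 spans 203 kb and holds Dcn (97479609 to 97518143), Lum (97565128 to 97572703), Kera (97606879 to 97613692) and Epyc (97644068 to 97682454), all on the plus strand. Here the neighbours did not share the size of the change: Dcn rose, Lum did not pass, and the other two were barely detected. Kera was at 0 to 0.102 FPKM, on at most 13 fragments in a library. Epyc, the gene of epiphycan, was at 0.009 to 0.018 FPKM in controls and 0.151 to 0.377 FPKM in Foxl2-LSL libraries, on 1 to 31 fragments. The cluster on chromosome 1 spans 151 kb and holds Optc (133897199 to 133907999, minus strand), Prelp (133910304 to 133921414, minus strand) and Fmod (134037254 to 134048277, plus strand). Optc, the gene of opticin, rose from a control mean of 2.16 ± 0.602 (n = 3) to 3.43 ± 0.370 FPKM (n = 4, ± SD) (log2 change 0.50 with SE 0.14, Benjamini-Hochberg adjusted p 0.0242 by limma) beside the larger rise of Prelp. Bgn lies alone on chromosome X (73483602 to 73495933). Strand use in counting is not given in the sources used here, so overlapping genes on opposite strands, such as Cenpp and the genes inside it, may share fragments.

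**Figure D2:**
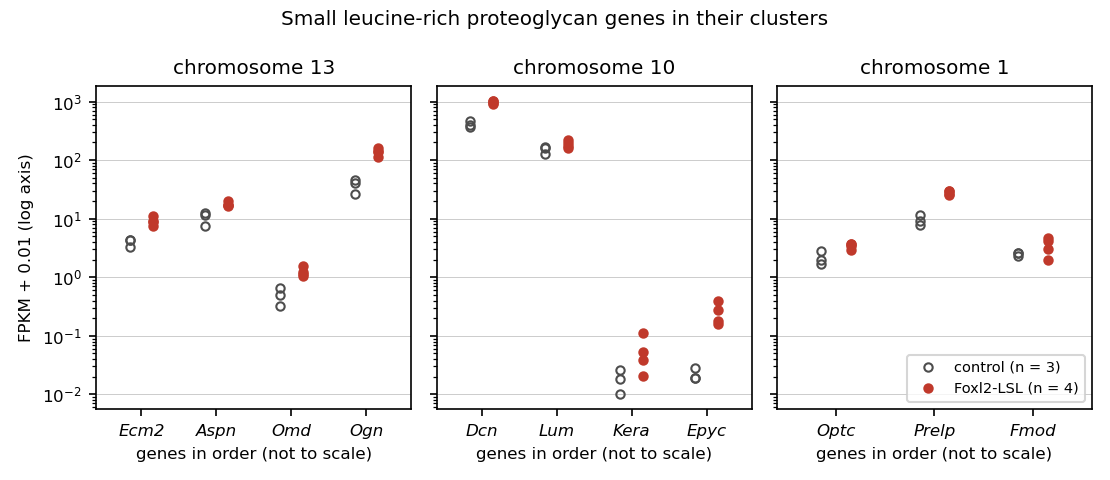
FPKM + 0.01 (log axis) of the small leucine-rich proteoglycan genes in the order in which they lie in 3 clusters, 1 point per library; open circles are the 3 controls and filled circles the 4 Foxl2-LSL libraries. All 4 genes of the chromosome 13 cluster are separated between the groups, as are Dcn, Epyc, Optc and Prelp, while Lum, Kera and Fmod overlap. Over all tested genes the groups did not overlap in 47.6%.

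Promoter sequence was available for 27 of the 41 members, in 38 windows of 300 bases (250 before to 50 after a transcript start) from RefSeq on GRCm38.p6. No window was matched for Fn1, Sparcl1, Thbs1, Matn2, Eln, Fbn2, Mfap4, Mfap5, Dcn, Lum, Has2, Lox, Loxl1 and Loxl2. The letters TATAAA, the core of the TATA box, were searched on both strands and lay in 7 of the 38 member windows (18.4%) against 13.6% of all 32851 windows. The members with a match were Aspn, Ogn, Postn, Thbs2, Spp1 and Tnc. On the coding strand 40 to 20 bases before the start, the usual place of a TATA box, only the window of Postn held the letters, 26 bases before the start, against 1.99% of all windows. GTAAACA, a common forkhead core, lay in 0 of the 38 member windows and in 3.65% of all windows. A match or its absence in this window says nothing of a factor's binding. The 250 bases before the start are shown for Ogn and Aspn, neighbours that rose together, and for Postn and Tnc, matricellular genes that moved in opposite directions, with TATAAA on either strand in capitals. Of the 2 windows of Tnc, the one upstream of its annotated start is shown.
Ogn (chr13:49607765-49608014, plus strand): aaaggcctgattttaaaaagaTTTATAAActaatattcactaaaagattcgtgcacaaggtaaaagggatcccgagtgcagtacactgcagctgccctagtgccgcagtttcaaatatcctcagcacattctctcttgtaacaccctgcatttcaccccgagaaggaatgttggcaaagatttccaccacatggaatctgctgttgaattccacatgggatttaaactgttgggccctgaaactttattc
Aspn (chr13:49544193-49544442, plus strand): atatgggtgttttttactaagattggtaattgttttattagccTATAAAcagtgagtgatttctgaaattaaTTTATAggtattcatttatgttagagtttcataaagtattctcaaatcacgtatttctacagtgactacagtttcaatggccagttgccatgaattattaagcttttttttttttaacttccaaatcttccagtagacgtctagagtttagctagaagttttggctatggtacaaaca
Postn (chr3:54360857-54361106, plus strand): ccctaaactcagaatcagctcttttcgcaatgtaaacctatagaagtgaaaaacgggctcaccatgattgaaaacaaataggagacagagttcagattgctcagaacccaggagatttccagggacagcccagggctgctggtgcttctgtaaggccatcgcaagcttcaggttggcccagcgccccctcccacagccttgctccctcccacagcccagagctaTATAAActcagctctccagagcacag
Tnc (chr4:64047016-64047265, minus strand): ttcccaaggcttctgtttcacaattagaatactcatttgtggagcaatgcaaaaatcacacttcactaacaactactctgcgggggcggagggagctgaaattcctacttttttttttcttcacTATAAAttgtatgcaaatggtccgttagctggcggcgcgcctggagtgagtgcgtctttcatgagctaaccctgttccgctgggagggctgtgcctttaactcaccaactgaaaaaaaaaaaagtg

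Versican fell in the Foxl2-LSL libraries, and the hyaluronan synthase genes on the list, Has1 and Has2, were below the filter on low values. Vcan encodes versican, the large chondroitin sulfate proteoglycan that binds hyaluronan in loose tissue. It was at 4.79, 6.77 and 10.4 FPKM in controls 1, 2 and 4 and at 1.23, 0.942, 1.31 and 1.40 FPKM in Foxl2-LSL 1 to 4. The highest Foxl2-LSL value was below the lowest control by a wide margin, and the ratio of the control mean to the Foxl2-LSL mean was 5.99 (log2 change -1.85 with SE 0.21, Benjamini-Hochberg adjusted p 0.000824 by limma). The smallest number of fragments on Vcan in a library was 661. The ratio of Dcn to Vcan was 83.5, 69.0 and 35.4 in controls 1, 2 and 4 and 762, 1098, 701 and 730 in Foxl2-LSL 1 to 4.

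Has2 and Has1 encode enzymes of the plasma membrane that spin out hyaluronan. Both were below the filter. Has2 was at 0.446, 0.886 and 2.84 FPKM in controls, with control 4 far above the others, and at 0.0430, 0.00500, 0.0740 and 0.0540 FPKM in Foxl2-LSL libraries. These values rested on 120 to 790 fragments in controls and on 12, 1, 19 and 12 fragments in Foxl2-LSL 1 to 4. Without the filter on low values its log2 fold change was -1.07 (limma, Benjamini-Hochberg adjusted p 0.0397). Has1 was at 0.151 to 0.240 FPKM in controls and 0.030 to 0.131 FPKM in Foxl2-LSL libraries, and its log2 fold change without the filter was -0.16 (limma, Benjamini-Hochberg adjusted p 0.0229). Has3, a synthase gene not on the list, was at 1.29, 1.30 and 1.52 FPKM in controls and 0.866, 1.10, 0.899 and 0.837 FPKM in Foxl2-LSL libraries. It passed as lower by a hair (log2 change -0.30 with SE 0.10, Benjamini-Hochberg adjusted p 0.0499987 by limma). The Foxl2-LSL mean of Has3, 0.927 FPKM, was under the filter, so it was tested only because of its level in controls. Acan, the gene of the cartilage proteoglycan aggrecan, had 1 to 6 fragments per library, at most 0.012 FPKM.

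Among 12 matricellular and adhesive members in the table, 11 were tested: 2 rose (Postn and Thbs2), 5 fell (Fn1, Tnc, Spp1, Thbs1 and Thbs3) and 4 did not pass (Tnxb, Sparc, Sparcl1 and Matn2). The share called was 63.6%, against 40.6% over all tested genes (16.7% higher and 23.9% lower). The median log2 fold change of the 11 members was -0.61. Their summed level was 634, 888 and 1138 FPKM in controls 1, 2 and 4 and 638 to 717 FPKM in Foxl2-LSL libraries, which overlapped. The falls and rises thus took place within a total that was not separated between the groups.

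Fn1 (chromosome 1, 71585520 to 71653200, minus strand) encodes fibronectin, the glycoprotein that cells assemble into fibrils through integrins. It was at 62.3, 108 and 153 FPKM in controls 1, 2 and 4 and at 32.9, 26.7, 29.5 and 36.7 FPKM in Foxl2-LSL 1 to 4. Controls spread widely, with control 1 lowest, and each was above all Foxl2-LSL libraries. Controls averaged 108 ± 45.4 FPKM (n = 3, SD) and Foxl2-LSL libraries 31.5 ± 4.33 FPKM (n = 4, SD), and the control mean was 3.43 times the Foxl2-LSL mean (log2 change -1.66 with SE 0.27, Benjamini-Hochberg adjusted p 0.00297 by limma). Set against the collagen gene Col1a1 in the same library, Fn1 was at a ratio of 0.326, 0.315 and 0.329 in controls and 0.154, 0.208, 0.197 and 0.174 in Foxl2-LSL libraries. The spread of the controls in Fn1 was thus nearly absent from this ratio, and the groups stayed apart.

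Tnc (chromosome 4, 63959785 to 64047015, minus strand) encodes tenascin-C, a hexameric glycoprotein that weakens the adhesion of cells to fibronectin and is induced in tissue that is being remodelled. Among tested members it had the largest fall on the log2(FPKM + 1) scale, from 8.51, 14.3 and 14.2 FPKM in controls to 2.17, 0.964, 1.30 and 1.80 FPKM in Foxl2-LSL libraries. No Foxl2-LSL library exceeded 2.17 FPKM and no control was under 8.51 FPKM. The control mean was 7.92 times the Foxl2-LSL mean (log2 change -2.37 with SE 0.22, Benjamini-Hochberg adjusted p 0.000411 by limma). Tnxb, the gene of tenascin-X, which binds collagen in soft tissue, was at 20.1 to 27.1 FPKM over the 7 libraries with full overlap (log2 fold change 0.04, 95% interval -0.25 to 0.34).

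Spp1 encodes osteopontin, a secreted phosphoprotein that binds integrins and CD44 and is made by uterine glands and macrophages. It was at 9.41, 8.79 and 3.12 FPKM in controls and 0.893, 0.833, 1.06 and 1.14 FPKM in Foxl2-LSL libraries (log2 change -1.92 with SE 0.30, Benjamini-Hochberg adjusted p 0.00257 by limma). Control 4 was the lowest of the controls and still above every Foxl2-LSL library. The Foxl2-LSL mean of 0.980 FPKM was under the filter, so the gene was tested only because of its level in controls. Gland markers were lower in the same libraries: the 5-gene gland list (Foxa2, Cxcl15, Prss28, Prss29 and Spink1) summed to 26.5 to 41.9 FPKM in controls and 4.67 to 6.98 FPKM in Foxl2-LSL libraries. Of its tested genes 2 of 2 were lower, where 23.9% of all tested genes were lower. Prss28 and Prss29 were at or near 0 in all libraries. Of 6 tested leukocyte markers 2 rose (Csf1r and Itgam) and 0 fell (33.3% called, against 40.6% over all tested genes). The sums of the leukocyte list overlapped, at 105 to 159 FPKM in controls and 147 to 202 FPKM in Foxl2-LSL libraries. The part of glands and macrophages in the value of Spp1 was not tested.

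Postn (chromosome 3, 54361109 to 54391037, plus strand) encodes periostin, a matricellular protein that helps to assemble collagen, fibronectin and tenascin. It moved against Fn1 and Tnc: it was at 17.6, 38.1 and 57.9 FPKM in controls and 88.0, 98.2, 82.2 and 93.7 FPKM in Foxl2-LSL libraries. Control 1 was far below control 4, which remained under all Foxl2-LSL libraries (log2 change 1.38 with SE 0.34, Benjamini-Hochberg adjusted p 0.0143 by limma). The ratio of Postn to Fn1 in the same library was 0.283, 0.351 and 0.378 in controls and 2.67, 3.67, 2.79 and 2.55 in Foxl2-LSL 1 to 4. Postn was thus below Fn1, per length, in every control and above it in every Foxl2-LSL library.

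The thrombospondins, calcium-binding glycoproteins that modulate adhesion and, in some members, blood vessel growth, were divided. Thbs1, which can activate latent TGF-beta, was at 32.0, 51.2 and 29.2 FPKM in controls and 14.2, 18.8, 18.5 and 15.05 FPKM in Foxl2-LSL libraries (log2 change -1.09 with SE 0.20, Benjamini-Hochberg adjusted p 0.00428 by limma). Thbs2, its closest relative, was at 3.79, 4.36 and 3.32 FPKM in controls and 10.03, 9.05, 8.02 and 9.81 FPKM in Foxl2-LSL libraries (log2 change 1.09 with SE 0.11, Benjamini-Hochberg adjusted p 0.000489 by limma). Neither pair of groups overlapped, and the directions were opposite. The ratio of Thbs2 to Thbs1 was 0.0852 to 0.118 in controls and 0.433 to 0.708 in Foxl2-LSL libraries. Thbs3 fell by less, from a control mean of 35.3 ± 3.70 (n = 3) to 22.7 ± 1.37 FPKM (n = 4, ± SD) (log2 change -0.61 with SE 0.09, Benjamini-Hochberg adjusted p 0.00182 by limma). Thbs4 was below the filter, at 0.192 to 0.562 FPKM in controls and 0.039 to 0.472 FPKM in Foxl2-LSL libraries, where Foxl2-LSL 1 was highest.

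Sparc encodes osteonectin, a collagen-binding glycoprotein, and was among the most abundant members at 256, 351 and 557 FPKM in controls and 265, 178, 198 and 263 FPKM in Foxl2-LSL libraries. Control 1 lay inside the Foxl2-LSL range, and the gene did not pass (log2 change -0.72 with SE 0.27, Benjamini-Hochberg adjusted p 0.0620 by limma). It passed without control 1 (log2 change -0.99, with a Benjamini-Hochberg adjusted p of 0.0193 by limma). Without control 4, its highest library, it did not (log2 change -0.43, with a Benjamini-Hochberg adjusted p of 0.138 by limma). Relative to Col1a1 in the same library Sparc was at 1.02 to 1.34 in controls and 1.24 to 1.39 in Foxl2-LSL libraries, which overlapped. Sparcl1, a relative of Sparc found in vessels and muscle, was at 171, 215 and 223 FPKM in controls and 189, 255, 217 and 211 FPKM in Foxl2-LSL libraries (log2 fold change 0.10, 95% interval -0.20 to 0.41). Matn2, the gene of the filament-forming matrilin-2, was at 20.02, 36.0 and 36.4 FPKM in controls and 38.2 to 47.5 FPKM in Foxl2-LSL libraries. Its groups did not overlap, yet it did not pass (log2 change 0.48 with SE 0.20, Benjamini-Hochberg adjusted p 0.0919 by limma).

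**Figure D3:**
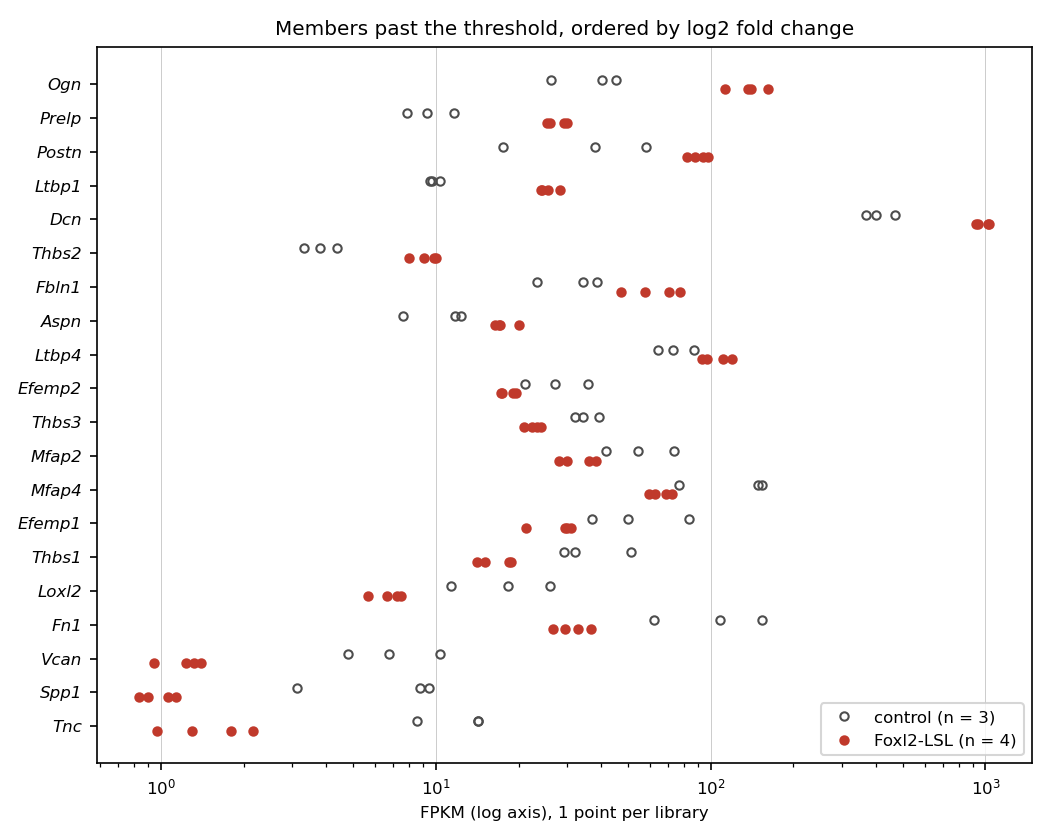
FPKM (log axis) of the 20 members past an adjusted p of 0.05, 1 point per library, ordered by log2 fold change; open circles are the 3 controls and filled circles the 4 Foxl2-LSL libraries. The groups are separated for each gene, from Ogn at the top to Tnc at the bottom. The genes were picked by the test on these same libraries, so the separation is no further evidence. In 47.6% of all tested genes the groups did not overlap.

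Of the 15 genes of elastic fibres and microfibrils, all tested, 3 rose (Ltbp1, Fbln1 and Ltbp4), 4 fell (Efemp1, Mfap4, Mfap2 and Efemp2) and 8 did not pass. The median log2 fold change was -0.20. The share called, 46.7%, was near the 40.6% over all tested genes. Elastin itself overlapped: Eln was at 13.5, 21.5 and 25.8 FPKM in controls and 19.7, 13.1, 16.8 and 25.7 FPKM in Foxl2-LSL libraries (log2 fold change -0.10, 95% interval -0.70 to 0.51).

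Ltbp1 (chromosome 17, 75005568 to 75392512, plus strand) encodes a protein that ties the latent TGF-beta complex to microfibrils and fibronectin. It had the smallest standard error of the called members: it was at 9.68, 10.3 and 9.55 FPKM in controls and 25.6, 24.3, 24.1 and 28.3 FPKM in Foxl2-LSL libraries. Controls averaged 9.86 ± 0.430 FPKM (n = 3, SD) and Foxl2-LSL libraries 25.6 ± 1.90 FPKM (n = 4, SD) (log2 change 1.29 with SE 0.08, Benjamini-Hochberg adjusted p 0.000131 by limma). Ltbp4, which is needed for elastic fibre assembly, was at 64.4, 72.7 and 86.6 FPKM in controls and 111, 96.6, 93.2 and 119 FPKM in Foxl2-LSL libraries (log2 change 0.49 with SE 0.13, Benjamini-Hochberg adjusted p 0.0184 by limma). Its groups were close, and its call was lost without control 1 (limma, Benjamini-Hochberg adjusted p 0.0535) and without control 2 (0.0604). Ltbp2 was at 0.212 to 2.17 FPKM, and control 1 and control 4 held its highest and lowest values, so no direction can be read (log2 change 0.11 with SE 0.33, Benjamini-Hochberg adjusted p 0.818 by limma).

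Fibulins link elastic fibres, basement membranes and proteoglycans. Fbln1 was at 38.5, 34.4 and 23.3 FPKM in controls and 70.8, 47.2, 57.5 and 77.2 FPKM in Foxl2-LSL libraries, with control 4 lowest (log2 change 0.96 with SE 0.21, Benjamini-Hochberg adjusted p 0.00991 by limma). Fbln2 was at 8.78 to 16.6 FPKM in controls and 8.92 to 11.4 FPKM in Foxl2-LSL libraries and did not pass (log2 change -0.40 with SE 0.21, Benjamini-Hochberg adjusted p 0.170 by limma), but passed without control 1 (log2 change -0.68, with a Benjamini-Hochberg adjusted p of 0.00592 by limma). With single libraries left out, its log2 fold change ran from -0.68 to -0.26. Fbln5 was at 3.59 to 7.58 FPKM in controls and 4.55 to 5.03 FPKM in Foxl2-LSL libraries (log2 change -0.08 with SE 0.19, Benjamini-Hochberg adjusted p 0.771 by limma). Efemp1, or fibulin-3, was at 37.1, 50.2 and 83.3 FPKM in controls and 21.3, 31.1, 30.0 and 29.4 FPKM in Foxl2-LSL libraries (log2 change -0.94 with SE 0.26, Benjamini-Hochberg adjusted p 0.0235 by limma). Its groups did not overlap, and its call was lost without control 2 (limma, Benjamini-Hochberg adjusted p 0.0563) and without Foxl2-LSL 1 (0.0541). Efemp2, or fibulin-4, which brings lysyl oxidase to elastin, was at 21.2, 27.1 and 35.7 FPKM in controls and 19.6, 17.3, 17.5 and 19.1 FPKM in Foxl2-LSL libraries (log2 change -0.55 with SE 0.16, Benjamini-Hochberg adjusted p 0.0255 by limma).

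The microfibril-associated proteins fell in 2 of 3 cases. Mfap2 was at 41.7, 54.4 and 73.5 FPKM in controls and 38.3, 30.0, 28.1 and 36.0 FPKM in Foxl2-LSL libraries (log2 change -0.73 with SE 0.19, Benjamini-Hochberg adjusted p 0.0197 by limma). Mfap4 was at 76.7, 154 and 148 FPKM in controls and 72.5, 59.5, 62.8 and 69.0 FPKM in Foxl2-LSL libraries (log2 change -0.87 with SE 0.23, Benjamini-Hochberg adjusted p 0.0211 by limma). In both genes control 1 lay only slightly above the highest Foxl2-LSL library. Of the 20 called members, Efemp2, Mfap2 and Mfap4 lost their call under the most alternatives. Each was lost without control 2 (limma, Benjamini-Hochberg adjusted p 0.0689, 0.0564 and 0.0771) and without Foxl2-LSL 3 (0.0662, 0.0554 and 0.0562). Efemp2 and Mfap4 also lost theirs without Foxl2-LSL 2 (0.0584 and 0.0519), Efemp2 without Foxl2-LSL 4 (0.0515) and Mfap4 without control 4 (0.0541). In the 2 controls and 2 Foxl2-LSL libraries with low adipose markers, their log2 fold changes were -0.30, -0.35 and -0.61, none past the threshold (limma, Benjamini-Hochberg adjusted p 0.141, 0.116 and 0.197). Mfap5 was at 16.7, 40.8 and 49.0 FPKM in controls and 21.9 to 32.7 FPKM in Foxl2-LSL libraries, inside the control range (log2 change -0.20 with SE 0.34, Benjamini-Hochberg adjusted p 0.669 by limma). It passed without control 1, again its lowest library (log2 change -0.65, with a Benjamini-Hochberg adjusted p of 0.0220 by limma). With single libraries left out, its log2 fold change ran from -0.65 to 0.10.

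The fibrillins, which form the microfibril itself, did not pass. Fbn1 was at 6.34, 11.6 and 22.2 FPKM in controls and 7.11, 5.85, 6.56 and 8.04 FPKM in Foxl2-LSL libraries. Control 1 was below 3 of the 4 Foxl2-LSL libraries and control 4 far above them all, and the interval was wide (log2 fold change -0.72, 95% interval -1.5 to 0.07). Without control 1 it passed (log2 change -1.12, with a Benjamini-Hochberg adjusted p of 0.0120 by limma). It passed in no other fit with 1 library left out, where the change was as small as -0.29. Fbn2 was at 2.64 to 4.26 FPKM in controls and 2.45 to 3.03 FPKM in Foxl2-LSL libraries (log2 fold change -0.28, 95% interval -0.59 to 0.03), and passed without control 1 (log2 change -0.43, with a Benjamini-Hochberg adjusted p of 0.0186 by limma). With single libraries left out, its log2 fold change ran from -0.43 to -0.17. Emilin1, an elastin-associated glycoprotein, was at 20.8, 29.6 and 44.5 FPKM in controls and 33.4, 27.5, 29.0 and 35.9 FPKM in Foxl2-LSL libraries (log2 fold change 0.05, 95% interval -0.48 to 0.58).

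Lysyl oxidases start the crosslinking of collagen and elastin by oxidising lysine side chains. Loxl2, which acts on collagen IV among others, fell: it was at 11.3, 18.4 and 25.99 FPKM in controls and 7.50, 6.64, 5.66 and 7.24 FPKM in Foxl2-LSL libraries, and the control mean was 2.75 times the Foxl2-LSL mean (log2 change -1.27 with SE 0.24, Benjamini-Hochberg adjusted p 0.00525 by limma). Lox was at 5.54, 10.4 and 6.83 FPKM in controls and 11.3, 7.39, 6.04 and 9.63 FPKM in Foxl2-LSL libraries and overlapped (log2 fold change 0.16, 95% interval -0.39 to 0.72). Loxl1, which is tied to elastic fibres, was at 15.6 to 18.0 FPKM in controls and 9.88 to 15.9 FPKM in Foxl2-LSL libraries and did not pass (log2 change -0.38 with SE 0.16, Benjamini-Hochberg adjusted p 0.0890 by limma). Loxl2 made up 34.9% to 51.1% of the summed FPKM of the 3 genes in controls and 22.1% to 27.8% in Foxl2-LSL libraries. The share of Lox was 13.4% to 22.4% in controls and 25.98% to 33.5% in Foxl2-LSL libraries.

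**Figure D4:**
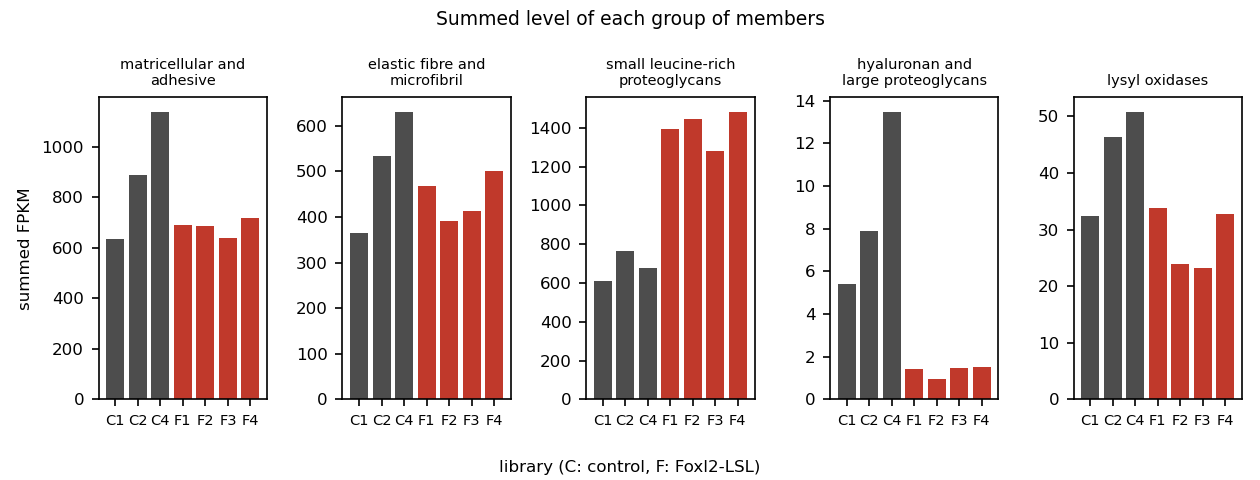
Summed FPKM of the members of each role in each library (bars; C, control; F, Foxl2-LSL). The small leucine-rich proteoglycans, at 1280 to 1483 FPKM in Foxl2-LSL libraries, and the versican and hyaluronan synthase group, at 0.980 to 1.53 FPKM, are separated from controls in opposite directions, and the other 3 groups overlap.

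Other matrix genes, from 4 further lists, gave 14 higher and 33 lower of 95 tested (49.5% called, against 40.6% over all tested genes, 16.7% higher and 23.9% lower), with a median log2 fold change of -0.19. Among 36 further glycoproteins and proteoglycans, 8 rose and 10 fell (50% called). Pcolce2, an enhancer of procollagen processing, rose from a control mean of 2.37 ± 0.612 (n = 3) to 28.0 ± 6.53 FPKM (n = 4, ± SD) (log2 change 3.09, with a Benjamini-Hochberg adjusted p of 0.000131 by limma), a larger change on that scale than in any tested member. Fbln7 fell from a control mean of 3.83 ± 1.75 (n = 3) to 0.615 ± 0.106 FPKM (n = 4, ± SD) and Emilin2 from a control mean of 6.13 ± 1.38 (n = 3) to 2.11 ± 0.739 FPKM (n = 4, ± SD). The Foxl2-LSL mean of Fbln7 was under the filter, so it was tested only through its level in controls. Nov, a member of the CCN family of matricellular proteins, rose from a control mean of 2.07 ± 0.328 (n = 3) to 6.65 ± 1.55 FPKM (n = 4, ± SD).

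Of 15 tested enzymes and chaperones of matrix assembly, 9 fell and 1 rose, with a median log2 fold change of -0.57. The share called was 66.7%, against 40.6% over all tested genes (16.7% higher and 23.9% lower). P4ha2, a prolyl hydroxylase subunit, fell from a control mean of 30.5 ± 2.43 (n = 3) to 12.3 ± 3.37 FPKM (n = 4, ± SD) and Serpinh1, the collagen chaperone HSP47, from a control mean of 379.8 ± 151 (n = 3) to 149 ± 13.8 FPKM (n = 4, ± SD). P3h1 and Pxdn, the latter a peroxidase that crosslinks collagen IV, had log2 fold changes of -1.22 and -1.15. Tll1, a procollagen-processing protease, was the gene that rose, from 0.716 ± 0.282 to 2.70 ± 0.873 FPKM (SD, n = 3 and n = 4). Its control mean was under the filter, so it was tested only because of its level in Foxl2-LSL libraries.

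Of 27 tested genes of hyaluronan binding and of glycosaminoglycan synthesis, 13 fell and 2 rose, with a median log2 fold change of -0.27. The share called was 55.6%, against 40.6% over all tested genes (16.7% higher and 23.9% lower). Hmmr, a hyaluronan-binding protein that also acts at the mitotic spindle, fell by 1.99 on the log2 scale, and Cd44, the main hyaluronan receptor, fell from a control mean of 16.4 ± 2.18 (n = 3) to 7.67 ± 0.569 FPKM (n = 4, ± SD). The chondroitin synthase gene Chsy1 fell from a control mean of 12.6 ± 4.57 (n = 3) to 5.08 ± 0.526 FPKM (n = 4, ± SD), and the sulfotransferase gene Chst7 rose from a control mean of 2.53 ± 0.987 (n = 3) to 5.81 ± 0.632 FPKM (n = 4, ± SD). The 6 cycling-cell markers (Mki67, Top2a, Ccnb1, Cdk1, Bub1 and Aurkb) were lower in the same libraries, 6 of 6, where 23.9% of all tested genes were lower. These markers summed to 67.6 to 159 FPKM in controls and 8.02 to 25.6 FPKM in Foxl2-LSL libraries. Their part in the value of Hmmr was not tested. Hmmr, at a mean of 0.929 FPKM in Foxl2-LSL libraries, also entered the test only through the controls. Among 17 matrix receptors, 3 rose (Itgb6, Itgb5 and Ddr1) and 1 fell (Itga5, the fibronectin receptor subunit, log2 fold change -0.49). The share called, 23.5%, was below the 40.6% over all tested genes.

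Cell-type markers moved beside these genes in several ways. The share called was 50% of stromal, 37.5% of smooth muscle, 87.5% of endothelial and 33.3% of tested leukocyte markers. Over all tested genes it was 40.6%. Of the 8 stromal markers 4 fell (Hand2, Thy1, Hoxa11 and Vim), and Col1a1, Col1a2, Col3a1 and Pdgfra did not pass. Of the 8 smooth muscle markers (Acta2, Myh11, Des, Cnn1, Tagln, Smtn, Lmod1 and Actg2) 3 rose, and their sum was 896 to 1736 FPKM in controls and 1573 to 2010 FPKM in Foxl2-LSL libraries. Of the 8 endothelial markers (Pecam1, Cdh5, Kdr, Tek, Tie1, Emcn, Vwf and Erg) 6 fell and 1 rose, with sums of 119 to 159 and 85.1 to 94.3 FPKM. Of 6 tested leukocyte markers 2 rose (Csf1r and Itgam), and the sums of that list, 105 to 159 and 147 to 202 FPKM, overlapped. The skeletal muscle list (Acta1, Ckm, Myh4, Tnnt3 and Mylpf) had Myh4 at 0 in all libraries and summed to 20.9 to 61.7 FPKM in controls and 8.79 to 14.7 FPKM in Foxl2-LSL libraries. The part of these cell types in the values of the matrix genes was not tested. Set against Col1a1 in the same library, Dcn was at 0.789 to 2.09 in controls and 4.38 to 8.06 in Foxl2-LSL libraries, and Postn at 0.0920 to 0.124 and 0.412 to 0.765. These ratios did not overlap between the groups, and with Fn1 over Col1a1 they show that the 3 genes and Col1a1 changed unequally.

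**Figure D5:**
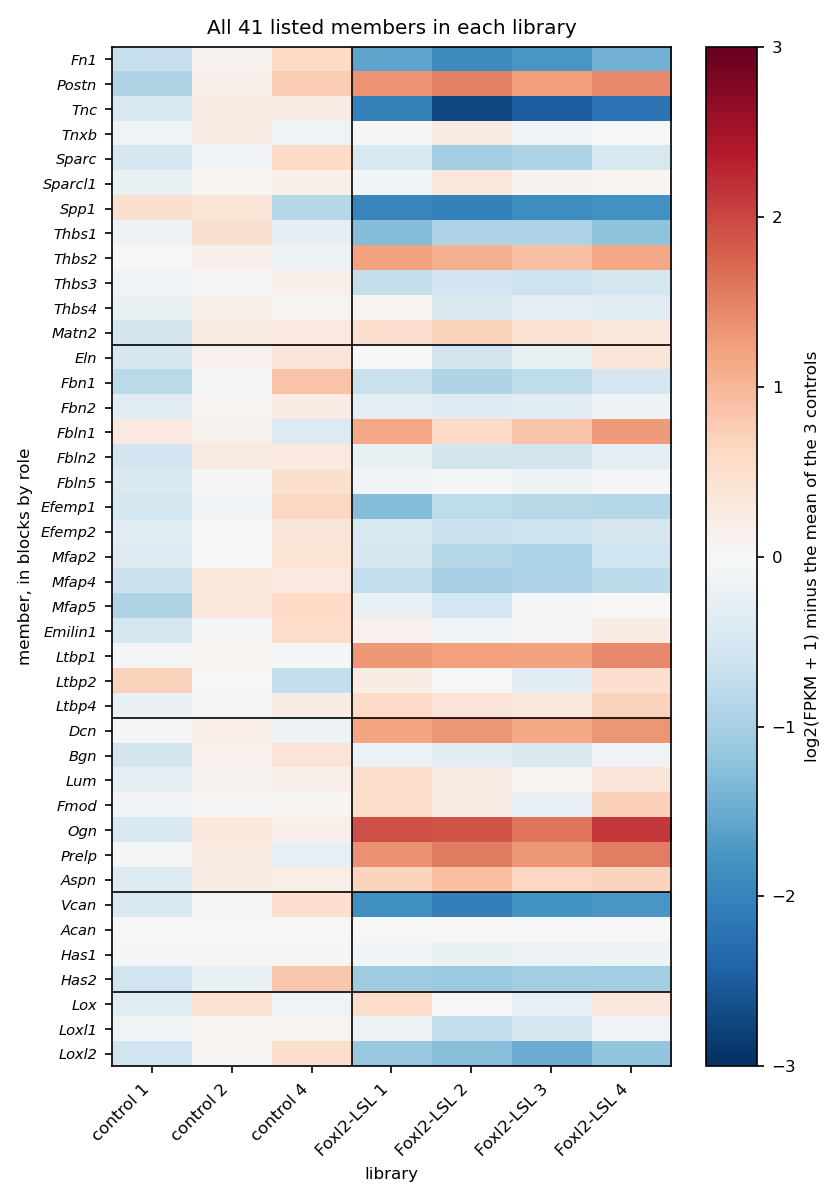
Log2(FPKM + 1) minus the mean of the 3 controls for all 41 members in the table (rows, in blocks by role) in the 7 libraries (columns); red is above and blue below the control mean. Control 1 held the lowest control value for 29 of the 37 tested members, and the Foxl2-LSL columns show both directions within each of the first 2 blocks.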

How the data were processed

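RNA of the whole uterus was sequenced in 7 libraries, and the authors deposited 1 table of FPKM values per gene. The submitters' processing notes name STAR 2.5.2b, featureCounts 1.5.0-p1 of the Subread package, DESeq2 1.12.4 and the build mm10, without saying which step each served. Whole fragments were recovered from the steps of low FPKM values: 100% of 1653 to 1832 low values per library lay within 0.1 of a whole number, against 20% by chance. They were used for depth and counting error. FPKM was tested as log2(FPKM + 1) in the 13334 genes averaging 1 FPKM or more, by limma 3.58.1 (trend, R 4.3.3), 3 controls against 4 Foxl2-LSL libraries, with Benjamini-Hochberg adjustment and a threshold of 0.05. The test was tried on simulated data. Tables and figures were made with matplotlib 3.10.9, pandas 2.3.3 and numpy 2.4.6 under Python 3.11.15. All members are described, and of each other matrix list up to 4 called genes with the largest changes, further genes being named after their values were seen. The members and lists were chosen with earlier results of these data known. Alternatives changed the pseudocount, filter, scaling, variance model, block and libraries used.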

Additional observations from a re-analysis of the deposited data

Results flagged for a closer look

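In Acan, the Foxl2-LSL 2 library stood apart from the 3 others of its group, at 0.003 FPKM against 0.002 FPKM in each. All 4 values rest on 1 fragment per library. About 1 in 20 groups of this size is marked by chance.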

How the results depend on the processing

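Values were recomputed under 19 alternatives, or 18 for Spp1, Fbn2, Ltbp2, Fmod and Vcan, which a filter at a mean of 5 FPKM removed. Of these, the fit without Foxl2-LSL 3 and the fit of the replicate-block libraries without the block are identical and were counted separately. The alternative with only the 2 controls and 2 Foxl2-LSL libraries low in adipose markers was chosen after seeing the data. Of the 20 called members 14 kept direction and call wherever they were tested, 6 lost the call under at least 1 (Fbln1, Efemp1, Efemp2, Mfap2, Mfap4 and Ltbp4), and 0 changed sign. Of the 17 uncalled, 7 passed under at least 1 alternative (Sparc, Fbn1, Fbn2, Fbln2, Mfap5, Bgn and Fmod). Leaving out 1 library at a time gave 3853 to 5328 called genes, 1636 to 2131 higher and 2195 to 3197 lower. For members it gave 15 to 25 called, 8 to 10 higher and 7 to 17 lower, and 32 to 50 for the other matrix lists. With the replicate block, which kept 3 libraries a group, 3243 genes were called, 1368 higher and 1875 lower, against 3975 in the same libraries without it. Of the members 16 were then called, 8 higher and 8 lower. Fbln1 (limma, Benjamini-Hochberg adjusted p 0.0535), Efemp2, Mfap2 and Mfap4 lost their calls. Efemp2, Mfap2 and Mfap4 also lost theirs in the same libraries without the block. Deviations of same-numbered libraries correlated at 0.228, -0.03 and -0.11. So few values from such small groups cannot decide whether the numbers pair samples, and the labels do not say. Among uncalled members the sign changed with array weights in Tnxb (-0.15), Eln (0.0312) and Lox (-0.0596). In the low-adipose libraries it changed in Tnxb (-0.0301), Eln (0.38), Fbln5 (0.17), Mfap5 (0.19) and Bgn (0.0571). With 1 library left out, log2 fold changes ran from -0.0333 to 0.16 for Tnxb, -0.0135 to 0.17 for Sparcl1, -0.35 to 0.0923 for Eln, -0.29 to 0.16 for Fbln5, -0.65 to 0.10 for Mfap5, -0.21 to 0.32 for Emilin1, -0.25 to 0.45 for Ltbp2 and -0.012 to 0.39 for Lox. The cause was not tested. Depth limits Acan, Has2, Kera and Epyc, which had as few as 0 or 1 fragments in a library, and Has1, which had as few as 3.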
